A study of Mus musculus with 23 samples.

Results

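The genes described here are 10 genes of the p53 pathway and of apoptosis, out of 55487 Ensembl gene IDs counted per library: Trp53, Mdm2, Cdkn1a, Ccng1, Gadd45a, Bax, Bak1, Bbc3, Sesn2 and Phlda3. They were chosen by name as a pathway, after Cdkn1a had been seen to be lower in stretched than in control soma libraries. The difference between stretched and control somata is therefore given for all 10 as a description, with no test.

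The study asked how the RNA of axons responds to mechanical force. Hippocampal cells of C57Bl/6 mice, taken from pups at postnatal day 1, were seeded on the soma side of microfluidic chambers, in which neurites reach a second compartment through narrow channels. All cultures, controls included, received magnetic nanoparticles at 5 µg/ml. Stretched cultures were placed in a magnetic gradient of 50 T/m, which exerts a pull on the particles, between day in vitro (DIV) 1 and DIV 6, and control cultures had a null gradient. RNA came either from the axonal compartment, which the labels call a pure axonal preparation, or from the side of the cell bodies, which the labels call total cell culture and the protocol calls somatodendritic. There were 5 libraries of control axons, 6 of stretched axons, 6 of control somata and 6 of stretched somata. The labels do not say which libraries came from separate cultures, so p-values measure the spread between these libraries, which may in part be technical.

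The 23 libraries held 16369153 to 43048953 counts, and levels are given as counts per 1000000 counts of the library (CPM). A floor of 3 counts was worth 0.0697 to 0.183 CPM, and this covers counting error only. Between 4263 and 10242 genes had at least 1 count in an axonal library and between 22452 and 24575 in a soma library. The summed level of 8 neuronal markers was 903 to 2991 CPM in axons and 4401 to 5316 CPM in somata. The summed level of 7 astrocyte markers was 4564 to 25629 CPM in axons and 4988 to 13888 CPM in somata, so RNA of glial genes was present in libraries labelled as pure axons. In a principal component analysis of the soma libraries, control soma replicate 4 had a first component of 19.8, among the stretched libraries (9.68 to 27.5) and away from the other 5 controls (-32.2 to -22.5). Values without it are given for the difference of each of the 10 genes in somata.

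The p53 protein, encoded by Trp53, is a transcription factor that accumulates after DNA damage and other stress and switches on genes that halt the cell cycle, repair DNA or start cell death. MDM2 is a ubiquitin ligase that marks p53 for destruction and is itself a p53 target, which closes a negative feedback loop. In neurons, which no longer divide, the pathway is best known for the death that follows injury or loss of trophic support, in which BBC3 (PUMA) and BAX act at the mitochondrion.

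Sequence just upstream of the start sites is shown first, because many of the genes are known p53 targets and p53 binds DNA at paired half-sites. The 250 bases upstream of each start were taken from RefSeq for build GRCm38.p6, and all 10 genes were matched, with 13 starts. Both strands were searched for the consensus p53 half-site, a pattern that reads the same on either strand and is counted once per position, and for GGGCGG and TATAAA. At least 1 half-site match was found in 6 of the 13 windows, against 7.13% of all 32526 upstream windows of this length. They belong to 6 of the 10 genes, Cdkn1a, Trp53, Mdm2, Ccng1, Bax and Gadd45a. Cdkn1a is the gene whose level led to the choice of the set, so both of its upstream windows are given in full, 5′ to 3′ on the strand of the gene, with half-site matches in capitals. The first is chr17:29090729-29090978 and the second chr17:29093519-29093768, both on the plus strand.
Cdkn1a start 1: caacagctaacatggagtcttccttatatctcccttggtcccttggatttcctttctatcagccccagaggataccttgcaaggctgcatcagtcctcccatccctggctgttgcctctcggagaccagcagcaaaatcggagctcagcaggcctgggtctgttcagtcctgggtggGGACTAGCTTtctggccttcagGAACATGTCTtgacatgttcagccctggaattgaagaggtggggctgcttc
Cdkn1a start 2: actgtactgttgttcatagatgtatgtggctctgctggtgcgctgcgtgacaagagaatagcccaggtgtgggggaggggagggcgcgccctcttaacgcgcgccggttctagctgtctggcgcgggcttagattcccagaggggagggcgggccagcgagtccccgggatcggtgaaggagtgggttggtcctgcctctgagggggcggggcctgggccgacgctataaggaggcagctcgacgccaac

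The 2 matches upstream of the first Cdkn1a start begin 73 and 51 bases before it, and the window of the second start holds none. The matches of the other 5 genes are given with 10 bases on each side, again with the match in capitals, so that their letters can be compared.
Trp53: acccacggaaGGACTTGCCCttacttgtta
Mdm2: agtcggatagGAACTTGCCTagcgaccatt
Ccng1: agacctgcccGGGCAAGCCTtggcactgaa
Bax: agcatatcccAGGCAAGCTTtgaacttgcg
Gadd45a: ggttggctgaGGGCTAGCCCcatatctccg
They lie in the windows chr11:69580109-69580358 (Trp53, plus strand), chr10:117710759-117711008 (Mdm2, minus strand), chr11:40755287-40755536 (Ccng1, minus strand), chr7:45466899-45467148 (Bax, minus strand) and chr6:67037408-67037657 (Gadd45a, minus strand). The first base of the match is 75, 186, 185, 201 and 40 bases upstream of the start of Trp53, Mdm2, Ccng1, Bax and Gadd45a. Bak1, Sesn2, Phlda3 and the 3 starts of Bbc3 hold no match in this window. GGGCGG was found in 9 of the 13 windows, against 33.0% of all windows, with 5 and 7 copies at the first and the third start of Bbc3. TATAAA was found in 1 of 13, that of Trp53, against 12.3%. A match is a description of letters and does not show binding.

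In somata, all 10 genes were counted in each of the 12 libraries. Per kilobase of exon, the order of the mean levels in control somata was Bax at 87.4 ± 4.16 CPM per kb (SD, n = 6), Phlda3 at 80.2 ± 11.5, Ccng1 at 61.0 ± 10.6, Cdkn1a at 36.8 ± 4.99, Sesn2 at 30.0 ± 4.36, Mdm2 at 16.1 ± 4.25, Trp53 at 13.7 ± 1.71, Bbc3 at 11.1 ± 6.56, Bak1 at 5.58 ± 0.880 and Gadd45a at 1.07 ± 0.852. The mean ± SD ranges of neighbours overlapped for Bax and Phlda3, Phlda3 and Ccng1, Cdkn1a and Sesn2, and for each step from Mdm2 to Bak1. They did not overlap between Ccng1 and Cdkn1a, Sesn2 and Mdm2, or Bak1 and Gadd45a.

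**Figure D1:**
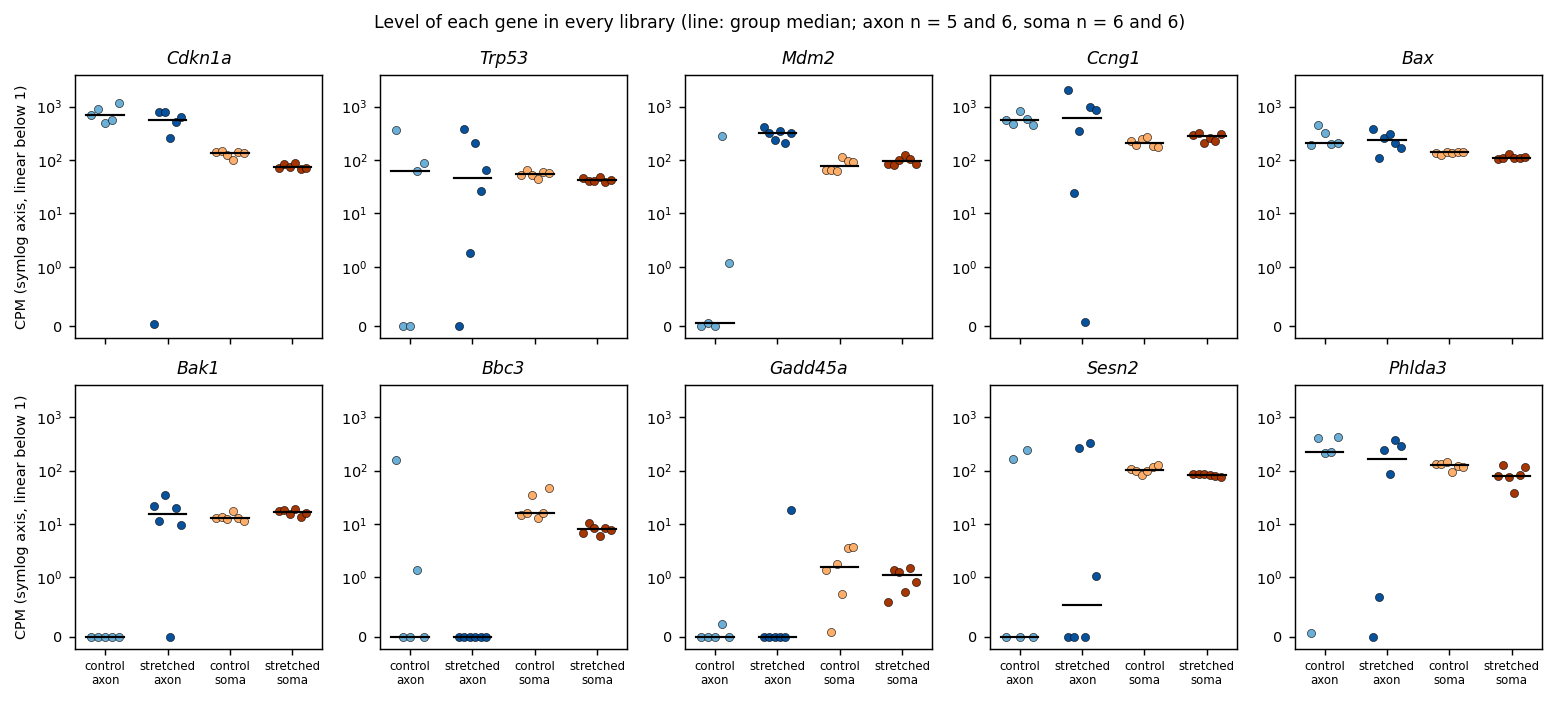
CPM of the 10 genes in every library (points), by group, with the group median as a line; the vertical axis is logarithmic above 1 and linear below it. In somata most genes kept a narrow range, while in axons several genes, such as Mdm2 in control and Ccng1 in stretched libraries, ran from a few counts or none to over 100 CPM.

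Across the 12 soma libraries, 7 of the 10 genes had a lower and 3 a higher fitted level in stretched cultures, as a description of the contrast by which the set was chosen. The median log2 fold change of the 10 was -0.40, and that of all 15632 genes tested was -0.03. Groups did not overlap for 2 of the 10, both lower, against 2.27% of all genes, and for 0 that were higher, against 1.84%. In bulk libraries a lower level can come from fewer cells of a type or from less RNA per cell, and these cannot be told apart. The summed level of 7 microglial markers was 23.0 to 47.2 CPM in control and 15.8 to 23.2 CPM in stretched somata, none of them at 0 in every library of a group. Of the 6 that were tested 5 had a negative log2 fold change (median -0.56), and edgeR called 1 lower at its threshold used throughout (Benjamini-Hochberg adjusted p under 0.05). The sums of 6 markers of dividing cells were 120 to 210 and 99.9 to 227 CPM, and all 6 had a negative log2 fold change (median -0.19), with 0 called. Sums of 7 oligodendrocyte lineage markers were 42.7 to 74.1 CPM in control and 39.8 to 57.3 CPM in stretched somata. Of the 6 tested, 3 had a negative log2 fold change, and 1 was called higher. Of 8 neuronal markers 2 were called higher and 2 lower, of 7 astrocyte markers 0, and of 6 fibroblast and vessel markers 1 lower. Over all genes 25.1% were called. The part of these cell types in the levels below was not tested.

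Among the regulators, the mean of Trp53 was lower in stretched somata, while most of the range of Mdm2 was shared between the groups. Trp53 (ENSMUSG00000059552, mm10 chr11:69580359-69591873, plus strand) had a lowest level of 44.6, a median of 55.8 and a highest of 64.3 CPM in control somata, and 38.7, 41.6 and 47.5 CPM in stretched somata. The groups overlapped only through control replicate 4, the lowest control, and 4 of 6 stretched libraries were below all controls. The log2 fold change was -0.43 (SE 0.10), and -0.50 (SE 0.09) without control replicate 4. Mdm2 (ENSMUSG00000020184, chr10:117688875-117710758, minus strand) ran from 61.5 over a median of 78.6 to 112 CPM in control and from 79.4 over 94.2 to 123 CPM in stretched somata. Only 1 stretched library was above all controls, and the log2 fold change was 0.20 (SE 0.16).

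The genes that act on the cell cycle did not move one way. Cdkn1a (ENSMUSG00000023067, chr17:29090976-29100727, plus strand) encodes p21, which blocks cyclin-dependent kinases. It had a lowest level of 99.0, a median of 137 and a highest of 148 CPM in control somata, and 69.4, 73.7 and 87.7 CPM in stretched somata. Every stretched library was below every control, of which replicate 4 was the lowest, and the control mean was 1.69 times the stretched mean. The log2 fold change was -0.80 (SE 0.11), -0.89 (SE 0.08) without control replicate 4, and -0.57 (SE 0.09) with an offset for transcript length and GC content. Counts of Eif2s3y, which lies on the Y chromosome, also divided the soma libraries into a high and a low set, each with 3 controls and 3 stretched libraries. In the high set the log2 fold change of Cdkn1a was -0.83 and in the low set -0.72, without overlap in either.

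Ccng1 (ENSMUSG00000020326, chr11:40748552-40755311, minus strand) encodes cyclin G1, which recruits a phosphatase to MDM2. Its levels were 173, 211 and 266 CPM (lowest, median, highest) in control and 212, 280 and 327 CPM in stretched somata. Its log2 fold change was 0.30 (SE 0.12), the highest of the 10 in the fit with all libraries, and 3 stretched libraries were above all controls. With the length and GC offset it was 0.18 (SE 0.12), below Bak1 at 0.45 (SE 0.14) and Bax at 0.19. Gadd45a (ENSMUSG00000036390, chr6:67035096-67037457, minus strand), a growth arrest and DNA damage response gene, was near the limit of counting, at 0.0826, 1.57 and 3.75 CPM in control and 0.583, 1.09 and 1.47 CPM in stretched somata. All 6 stretched libraries lay within the range of the controls, and the log2 fold change was -0.87 (SE 0.56).

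Of the 3 effectors of apoptosis, Bbc3 had groups without overlap, while those of Bax and Bak1 overlapped. Bbc3 (ENSMUSG00000002083, chr7:16308393-16318205, plus strand) encodes PUMA, a BH3-only protein that frees BAX and BAK from their inhibitors. It was at 13.2, 15.9 and 46.8 CPM (lowest, median, highest) in control and 5.99, 8.09 and 10.6 CPM in stretched somata. Every stretched library was below all controls, and the control mean was raised by replicates 3 and 6, at 34.97 and 46.8 CPM, above the other 4 controls at 13.2 to 16.05 CPM. Its log2 fold change of -1.60 (SE 0.31) was the lowest of the 10 genes, and it was -1.39 in the Eif2s3y-high and -1.77 in the Eif2s3y-low libraries. With the length and GC offset it was -1.01 (SE 0.21).

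Bax (ENSMUSG00000003873, chr7:45461697-45466898, minus strand), whose protein opens pores in the outer mitochondrial membrane, was at 127, 139 and 144 CPM in control and 107, 111 and 131 CPM in stretched somata. Stretched replicate 4, at 131 CPM, was the only stretched library within the range of the controls. Its log2 fold change was -0.32 (SE 0.07), but it turned to 0.19 (SE 0.10) with the length and GC offset, so its direction rests on that choice. Bak1 (ENSMUSG00000057789, chr17:27019810-27029009, minus strand), the other pore-forming protein, was at 11.5, 12.9 and 17.5 CPM in control and 13.6, 17.0 and 18.9 CPM in stretched somata. Control replicate 4 was the highest control, and 3 stretched libraries were above all controls. Without control replicate 4 the groups did not overlap, and the log2 fold change was 0.35 (SE 0.11) in place of 0.27 (SE 0.13).

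Both genes that link p53 to growth signalling had a lower mean in stretched somata, with groups that overlapped. Sesn2 (ENSMUSG00000028893, chr4:132492032-132510501, minus strand), a stress-induced inhibitor of mTORC1 signalling, was at 82.8, 103 and 126 CPM (lowest, median, highest) in control and 74.7, 83.3 and 87.7 CPM in stretched somata. The stretched libraries were grouped at the low end of the controls, 3 of them below all controls, and the log2 fold change was -0.38 (SE 0.10). Phlda3 (ENSMUSG00000041801, chr1:135766119-135769136, plus strand), whose protein competes with AKT for membrane lipids, was at 94.0, 129 and 146 CPM in control and 37.3, 80.7 and 127 CPM in stretched somata. Stretched replicates 2 and 8, at 127 and 119 CPM, lay within the controls and the other 4 below them. The log2 fold change was -0.57 (SE 0.22), and -0.14 (SE 0.17) with the length and GC offset.

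The size of several differences was unequal in the Eif2s3y sets, each with 3 libraries a group. Mdm2 had a log2 fold change of 0.40 (SE 0.09), without overlap, in the high set and of 0.10 (SE 0.12), with overlap, in the low set. Ccng1 was at 0.48 and 0.16 and Bak1 at 0.44 and 0.16, each without overlap in the high set alone. Control replicate 4 is among the 3 controls of the low set. It was the highest of them for Mdm2 (112 CPM), Ccng1 (266 CPM) and Bak1 (17.5 CPM). The overlap of these genes in the low set came through that library alone. Phlda3 was at -0.34 in the high and -0.81 in the low set, Sesn2 at -0.22 and -0.46, and Gadd45a at -0.17 and -1.25. Trp53 (-0.40 and -0.39) and Bax (-0.29 and -0.30) were near equal in both. With the sets as a covariate, Mdm2 was at 0.22 (SE 0.08), beside 0.20 (SE 0.16) without it. Whether the sets differ was not tested. Without control replicate 4, the log2 fold changes not yet given were 0.29 for Mdm2, 0.36 for Ccng1, -1.05 for Gadd45a, -1.74 for Bbc3, -0.34 for Bax, -0.41 for Sesn2 and -0.66 for Phlda3, each in the direction of the fit with all libraries.

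**Figure D2:**
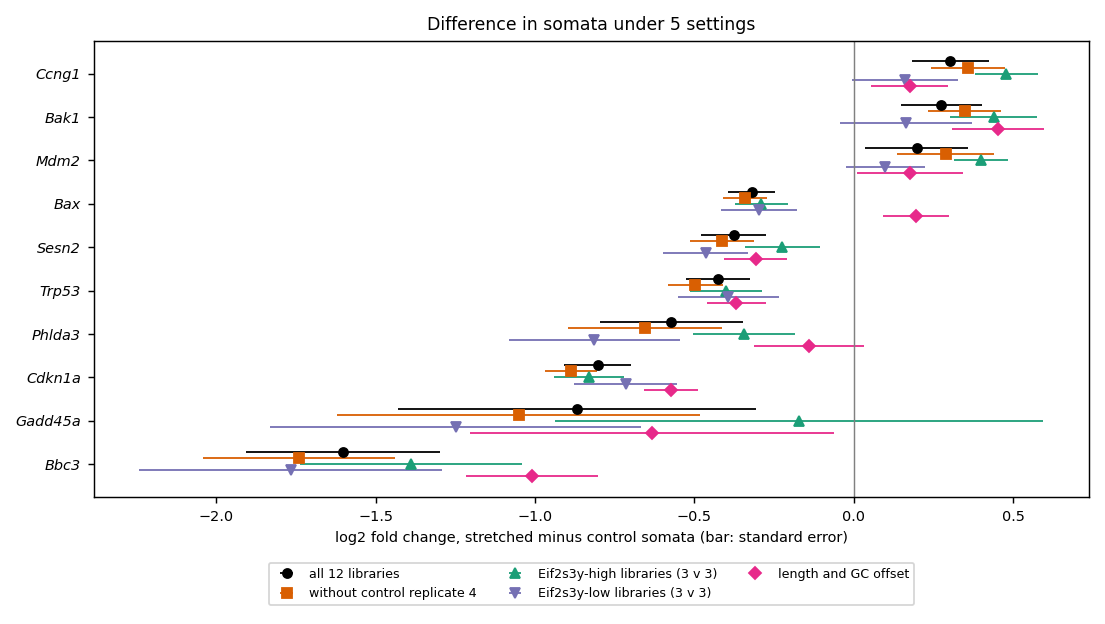
Log2 fold change between stretched and control somata (horizontal axis; bars are standard errors) for each of the 10 genes under 5 settings. Cdkn1a, Bbc3, Trp53, Sesn2, Phlda3 and Gadd45a lay below 0 under all 5, and Ccng1, Bak1 and Mdm2 above 0 under all 5. Only Bax changed sign, from -0.32 to 0.19 with the length and GC offset.

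Whether the other 9 genes followed Cdkn1a from library to library was asked with deviations from the group means, which do not hold the group difference. The permutations exchanged deviations freely over all libraries, with no allowance for the means removed, so the permutation p-values may be too small. Of 9 relations over 12 soma libraries, 0 passed after adjustment, and 1 had an unadjusted p under 0.05. That was Trp53, with Pearson's r of 0.73 (permutation p = 0.00692, adjusted p = 0.0623) and Spearman's rho of 0.66 (permutation p = 0.0222, adjusted p = 0.1996). Without the 2 libraries farthest from the median of Cdkn1a, control replicates 2 and 4, r was 0.34 (permutation p = 0.325), so the relation rests on those libraries. Bak1 went the other way, from r of -0.14 with all libraries to 0.72 without these 2 (permutation p = 0.0194, adjusted p = 0.175). Without control replicate 4 alone, r of Bak1 was 0.75 (permutation p = 0.00907, adjusted p = 0.0816) and its rho 0.77 (permutation p = 0.00738, adjusted p = 0.0664), and r of Trp53 was 0.47 (permutation p = 0.143). With deviations taken within the Eif2s3y sets, a choice made after seeing the data, Trp53 (r 0.73) and Sesn2 (r 0.72) passed, each with a permutation p adjusted over 9 of 0.0375. Their rho of 0.76 and 0.51 did not pass, with permutation p adjusted over 9 of 0.0562 and 0.422. More means were removed in this setting, so the 2 passes by r are not secure. With all 12 libraries and no Eif2s3y sets, r lay between -0.36 and 0.46 for the 8 genes other than Trp53.

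Other genes of the pathway were read from 6 lists. Together they held 109 genes, of which 107 were tested in somata, all but Bik and Phlda2. The edgeR fit called 30 of the 107, or 28.0%, against 25.1% of all genes, with 11 higher and 19 lower, where 11.2% and 13.9% of all genes were. Their median log2 fold change was -0.07 beside -0.03 for all genes. The number of higher calls fell to 5 without control soma replicate 2 or stretched soma replicate 1 and rose to 16 without control soma replicate 4. In the Eif2s3y-low libraries alone 0 of these genes passed the edgeR threshold, as did 0 of all genes, of which 2739 had an unadjusted p under 0.05. Control soma replicate 4 is in that set. In the Eif2s3y-high libraries alone, Ppm1d, Atr, Rchy1, Endog and Ccnd1 of the genes named below did not pass.

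Of 33 other p53 targets, 4 were higher and 5 lower, or 27.3% in all beside 25.1% of all genes, with a median log2 fold change of 0.02. Ppm1d, which encodes the phosphatase WIP1 that switches p53 signalling off, fell from 21.2 ± 15.5 to 6.29 ± 2.97 CPM (SD, n = 6 each; log2 fold change -1.80, SE 0.49, edgeR adjusted p = 0.0191). Ei24 fell from 46.8 ± 12.4 to 28.5 ± 6.96 CPM and the ribosomal protein gene Rps27l from 69.6 ± 17.0 to 47.6 ± 8.75 CPM (edgeR adjusted p of 0.0149 and 0.0184). Apaf1, the scaffold of the apoptosome, rose from 28.5 ± 9.46 to 46.3 ± 8.96 CPM (log2 fold change 0.66, SE 0.19, edgeR adjusted p = 0.0224). Susd6 rose from 21.8 ± 6.96 to 38.7 ± 10.1 CPM and the polo-like kinase gene Plk2 from 433 ± 100.2 to 591 ± 52.5 CPM (edgeR adjusted p of 0.0182 and 0.0252). Apaf1 and Rps27l did not pass with the length and GC offset (edgeR adjusted p of 0.069 and 0.0693), nor did Ppm1d with no filter (0.0757). Plk2 failed in 5 and Apaf1 in 2 of the 12 fits that left out 1 library.

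Of 22 regulators and relatives of p53, 3 were higher and 1 lower, or 18.2%, with a median log2 fold change of 0.17. The kinase gene Atr rose from 2.31 ± 0.529 to 3.90 ± 0.567 CPM (SD, n = 6 each) without overlap (edgeR adjusted p = 0.0219). It failed to pass in 1 of the 12 fits that left out 1 library. Trp53bp1 and Crebbp, which encode a DNA repair protein and an acetyltransferase that modifies p53, had log2 fold changes of 0.52 and 0.42 (edgeR adjusted p of 0.0423 and 0.0435). Each failed to pass in 9 of the 12 fits that left out 1 library. Rchy1, which encodes a further ubiquitin ligase of p53, fell from 83.1 ± 7.72 to 69.9 ± 3.83 CPM (edgeR adjusted p = 0.0216), but failed in 3 of the 12. With the length and GC offset none of the 4 passed, with edgeR adjusted p of 0.190 for Atr, 0.0732 for Trp53bp1, 0.0858 for Crebbp and 0.215 for Rchy1. With no filter, Trp53bp1 and Rchy1 did not pass (0.103 and 0.084).

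Of 11 other BCL2 family genes tested, 1 was higher and 2 lower, or 27.3%, with a median log2 fold change of 0.06. Bad, a BH3-only gene as Bbc3 is, fell from 77.0 ± 9.92 to 54.5 ± 7.01 CPM (SD, n = 6 each; log2 fold change -0.54, SE 0.11, edgeR adjusted p = 0.00627). Bok, a relative of Bax and Bak1, fell from 63.6 ± 4.15 to 51.2 ± 5.66 CPM (log2 fold change -0.35, edgeR adjusted p = 0.016), but turned to 0.04 with the length and GC offset. The survival gene Bcl2l2 had a log2 fold change of 0.53 (edgeR adjusted p = 0.0415), which did not pass in 9 of the 12 fits that left out 1 library. With the offset Bad was at -0.25 and Bcl2l2 at 0.52, and neither passed (edgeR adjusted p of 0.0604 and 0.063).

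Of 23 genes of caspases, the apoptosome and inhibitors of apoptosis, 4 were higher and 3 lower, or 30.4%, with a median log2 fold change of -0.11. Casp2 rose from 18.3 ± 2.79 to 27.2 ± 1.81 CPM (SD, n = 6 each) without overlap (log2 fold change 0.53, SE 0.11, edgeR adjusted p = 0.00616). The initiator caspase gene Casp9 rose from 12.1 ± 1.28 to 16.8 ± 2.50 CPM, and Birc2, an inhibitor of apoptosis, from 43.3 ± 9.25 to 61.0 ± 6.62 CPM (edgeR adjusted p of 0.0211 and 0.0173). Casp9 failed to pass in 2 of the 12 fits that left out 1 library. Cycs, which encodes cytochrome c, fell from 131 ± 14.2 to 107 ± 6.51 CPM (edgeR adjusted p = 0.0153). Endog, a mitochondrial nuclease gene, fell from 3.77 ± 2.37 to 1.21 ± 0.720 CPM (edgeR adjusted p = 0.019, or 0.0621 with the length and GC offset). Birc5, encoding survivin, which also serves in cell division, fell from 16.2 ± 3.36 to 11.0 ± 1.81 CPM (edgeR adjusted p = 0.0153).

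The list of p21 partners and other inhibitors of cyclin-dependent kinases had 0 of 16 genes higher and 6 lower, or 37.5% lower beside 13.9% of all genes, with a median log2 fold change of -0.39. The markers of dividing cells, with a median of -0.19 and 0 called, had negative values too, and their part was not tested. Cdkn1c, the p57 paralog of Cdkn1a, fell from 3.30 ± 1.11 to 0.825 ± 0.563 CPM (SD, n = 6 each; log2 fold change -2.03, SE 0.41, edgeR adjusted p = 0.00575). Ccnd1, encoding cyclin D1, fell from 161 ± 35.8 to 113 ± 9.92 CPM, and its kinase partner gene Cdk4 from 223 ± 21.9 to 181 ± 8.83 CPM (edgeR adjusted p = 0.0103 for each). With the length and GC offset Cdk4 did not pass (edgeR adjusted p = 0.262). Without control soma replicate 4 the number of lower genes in this list was 12. Of 12 tested paralogs of the 10 genes, 5 were lower (41.7%, beside 13.9% of all genes) and 0 higher (beside 11.2%), with a median of -0.21. Cdkn1b, the p27 paralog of Cdkn1a, fell from 75.2 ± 12.9 to 53.7 ± 10.2 CPM (edgeR adjusted p = 0.0158), and Cdkn1c and Bok are also on this list. Cdkn1b and Cdkn1c are among the 6 lower genes above and Bok among the lower BCL2 family genes, so the lists share calls.

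**Figure D3:**
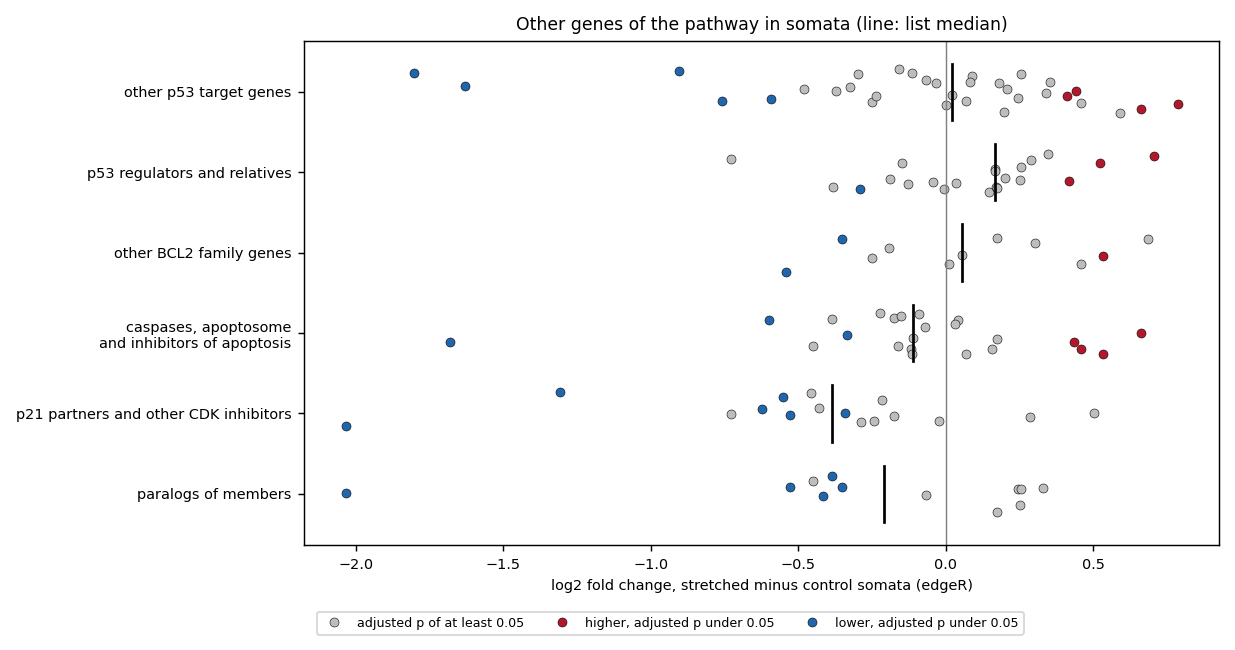
Log2 fold change between stretched and control somata (horizontal axis) of each tested gene of the 6 lists, coloured by the edgeR call, with each list's median as a black line; a gene on 2 lists is drawn on both. The p53 targets lie on both sides of 0, with 4 called higher and 5 lower, and the p21 partners and CDK inhibitors have 6 called lower and 0 higher.

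In axons most of the 10 genes were found in part of the libraries only. Between 4 and 9 of them had at least 1 count in an axonal library, with a median of 6 in control and 7.5 in stretched axons. Cdkn1a, Ccng1 and Bax had counts in 11 of 11 axonal libraries, Phlda3 in 10, Mdm2 in 9, Trp53 in 8, Sesn2 and Bak1 in 5, and Bbc3 and Gadd45a in 2. At least 3 counts were present in 10 libraries for Cdkn1a and Ccng1, in 9 for Phlda3 and in 8 for Mdm2. The other genes kept their numbers. The shares below take 1 count as detected. Of the 44 pairs of gene and axonal library for the 4 genes over 100 CPM in somata, 43 were detected, or 97.7%, and the median share of all such genes per axonal library was 76.1%. Of the 55 pairs for the 5 genes at 10 to 100 CPM, 29 were detected, or 52.7%, beside 34.9% for all genes of that class. Where a gene was counted at all it was often above every soma library. This was so for Cdkn1a and Bax in 10 axonal libraries, Ccng1 in 9, Phlda3 and Mdm2 in 7, Trp53 in 5 and Sesn2 in 4. It was so for Bak1 in 3 and for Bbc3 and Gadd45a in 1. The same count over all genes was not made, so these numbers do not set the 10 genes apart.

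**Figure D4:**
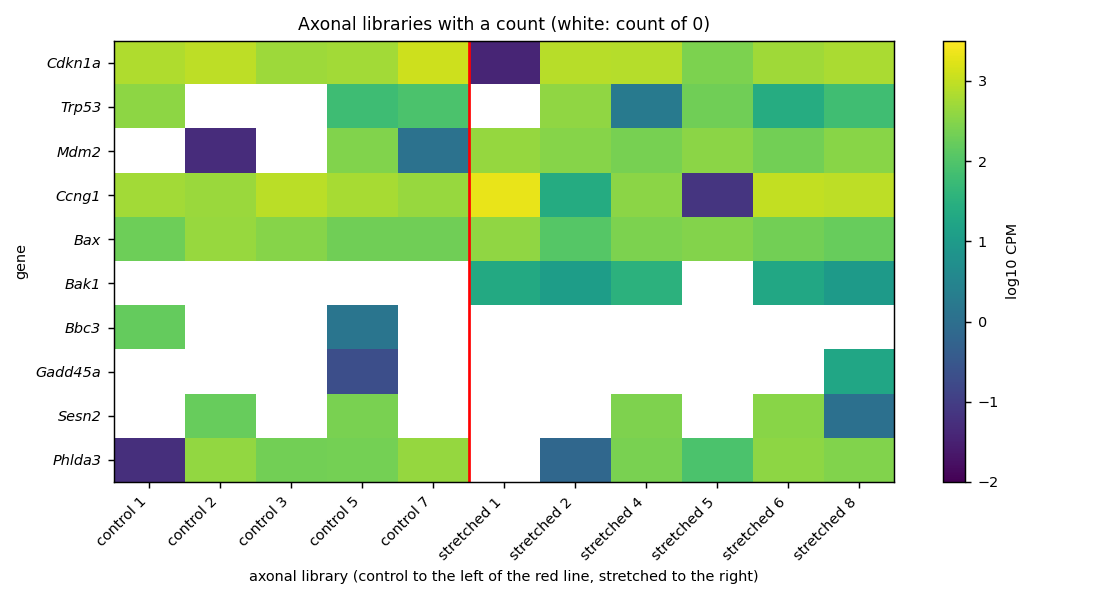
Level of the 10 genes (rows) in the 11 axonal libraries (columns; control to the left of the red line, stretched to the right), as log10 CPM in colour and white where the count was 0. Bax is filled in every column, Bak1 is white in all 5 control libraries, and Bbc3 is white in all 6 stretched libraries.

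The question of whether stretch changes these genes in axons was tested with libraries that the choice of the genes did not use. With edgeR, 8 of the 10 had enough counts to be tested, all but Bbc3 and Gadd45a, and 0 were called, where 0% of the 4947 genes tested were. At an unadjusted p under 0.05 there was 1 of the 8, Bak1, beside 46 genes or 0.930% of all. DESeq2 called 18 of all genes and 1 of the 8, again Bak1, but it gave no adjusted p for Mdm2. The standard errors of the log2 fold changes, leaving out Bak1, ran from 0.95 (Bax) to 2.98 (Sesn2), so that changes of several-fold were not detectable at this spread. Astrocyte marker sums were 4564 to 25629 CPM in control and 4790 to 19124 CPM in stretched axons, and their part in these levels was not tested.

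Bak1 had 0 counts in all 5 control axon libraries and 22.0, 11.4, 34.6, 0, 19.6 and 9.71 CPM in stretched replicates 1, 2, 4, 5, 6 and 8. Counts were present in 5 of 6 stretched libraries, and stretched replicate 5 was at 0 as the controls were. The gene passed the filter on low counts through its stretched libraries alone, so its p-values with the filter support nothing. The stretched mean of 16.2 ± 11.9 CPM (SD, n = 6) was at least 128-fold higher than the mean floor of 3 counts per library in controls. The edgeR adjusted p was 1.00 (unadjusted p = 0.00169), and 0.135 with no filter. The DESeq2 adjusted p was 1.8e-05, so the call rests on the tool. Bak1 exons overlap those of Ggnbp1 on the other strand, which reached 15.7 CPM in a stretched axon library. Whether counting used strand is not given in the sources used here, so reads of the 2 genes may not be told apart.

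Mdm2 had 0, 0.050, 0, 281 and 1.21 CPM in control axon replicates 1, 2, 3, 5 and 7, and a lowest level of 208, a median of 322 and a highest of 419 CPM in stretched axons. Counts were high in every stretched library and in 1 control, and the groups overlapped through that control, replicate 5. Its log2 fold change was 2.20 (SE 2.18, edgeR adjusted p = 1.00). When 1 library was left out, the log2 fold change of Mdm2 ranged from 1.85 to 9.99, and it was called in 0 of these fits. Trp53 had 370, 0, 0, 62.2 and 87.9 CPM in the same control libraries and 0, 45.8 and 390 CPM (lowest, median, highest) in stretched axons. Both groups held libraries without counts and libraries above all somata, and the log2 fold change was 0.11 (SE 2.40, edgeR adjusted p = 1.00).

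Cdkn1a was at 699, 909, 491, 553 and 1188 CPM in control axon replicates 1, 2, 3, 5 and 7. In stretched axons it had 1 count in replicate 1, or 0.038 CPM, and 805, 786, 262, 511 and 632 CPM in replicates 2, 4, 5, 6 and 8. The groups overlapped, and the log2 fold change was -0.58 (SE 1.04, edgeR adjusted p = 1.00), or -0.33 (SE 0.40) without stretched replicate 1. Ccng1 had 551, 472, 835, 600.3 and 447 CPM in the control libraries and 2064, 24.3, 357, 0.070, 978 and 874 CPM in stretched replicates 1, 2, 4, 5, 6 and 8. The stretched libraries lay on both sides of the controls, and the log2 fold change was 0.25 (SE 1.16, edgeR adjusted p = 1.00). Gadd45a had 0.209 CPM in control replicate 5, 18.4 CPM in stretched replicate 8 and 0 counts in the other 9 axonal libraries.

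Bax was the only one of the 10 genes at more than 100 CPM in all 11 axonal libraries, at 193, 450, 322, 201 and 207 CPM in controls and from 110 over a median of 236 to 384 CPM in stretched axons. The ranges overlapped, and the log2 fold change was -0.20 (SE 0.95, edgeR adjusted p = 1.00). Bbc3 had 157 CPM in control replicate 1, 1.37 CPM in control replicate 5 and 0 counts in the other 3 controls and in all 6 stretched axon libraries. It was too rarely counted to be tested. The control mean, at least 227-fold higher than the mean floor of the stretched libraries, came almost wholly from replicate 1.

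Sesn2 had 0, 166, 0, 243 and 0 CPM in control axon replicates 1, 2, 3, 5 and 7 and 0, 0, 267, 0, 334 and 1.06 CPM in stretched replicates 1, 2, 4, 5, 6 and 8. Libraries with high counts and libraries at 0 were found in both groups (log2 fold change 0.23, SE 2.98, edgeR adjusted p = 1.00). Phlda3 had 0.056, 401, 212, 219 and 417 CPM in controls and 0, 167 and 375 CPM (lowest, median, highest) in stretched axons. There was 1 control library with a single count and 1 stretched library with none, and the log2 fold change was -0.49 (SE 1.86, edgeR adjusted p = 1.00).

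Axons were compared with somata within each condition, with the soma libraries in which the genes were chosen. Most genes were lower in axons, and the median log2 fold change over all genes was -1.40 in control cultures and -1.13 in stretched ones. Scaled by library totals only, these medians were -1.27 and -0.73. The medians of the 10 genes were 0.32 and 0.71, and they are the same with the gene at 0 in axons put at its bound. Detection in axons rose with soma level, from a median of 11.2% of genes at 1 to 10 CPM to 76.1% over 100 CPM. The 10 genes were not matched to all genes by soma level here. Neither these medians nor the shares called below therefore set them apart. In control cultures edgeR called 4 of the 10, where 35.3% of all genes were called. Of these 2 were higher and 2 lower in axons, where 0.856% and 34.4% of all genes were. Both lower genes, Bak1 and Gadd45a, passed the filter on low counts through the soma libraries alone, as Bbc3 did in stretched cultures, so for these 3 the p of the fit with no filter is given. Cdkn1a had 768 ± 284 CPM (SD, n = 5) in control axons, against 131 ± 17.7 CPM (SD, n = 6) in their somata, higher in 5 of 5 axonal libraries (log2 fold change 2.28, SE 0.28, edgeR adjusted p = 3.4e-05). Ccng1 was at 581 ± 155 and 214 ± 37.2 CPM, also higher in 5 of 5 (log2 fold change 1.203, SE 0.28, edgeR adjusted p = 0.00445), but it did not pass without the filter on low counts (edgeR adjusted p = 0.148). Astrocyte marker sums overlapped between the compartments, and their part was not tested.

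Bax did not overlap either, with every control axon library above every control soma library. Its log2 fold change of 0.72 (SE 0.36) did not pass with edgeR (adjusted p = 0.193) and passed with DESeq2 (adjusted p = 0.0174). Groups did not overlap for 3 genes higher in axons, against 0.978% of all genes, and for 1 lower, against 40.6%. The lower one was Bak1, at 13.4 ± 2.12 CPM in control somata (SD, n = 6) and 0 counts in control axons, at least 106-fold lower in axons (edgeR adjusted p = 8.6e-05 with no filter). Gadd45a was at 1.88 ± 1.503 CPM in somata (SD, n = 6) and had counts in 1 of 5 axonal libraries (edgeR adjusted p = 0.00913 with no filter). With the filter it had too few counts to be tested in 5 of the 11 fits that left out 1 library. Without control axon replicate 1, 6 of the 10 passed, with Phlda3 higher (log2 fold change 1.06, edgeR adjusted p = 0.024) and Bbc3 lower in addition. Without control axon replicate 5, Mdm2 was called lower. These calls of Bbc3 and Mdm2 followed from leaving out the 1 library with a high count, after which the highest control axon level was 1.37 CPM for Bbc3 and 1.21 CPM for Mdm2. That of Phlda3 followed from leaving out its lowest control axon library, at 0.056 CPM. With all libraries Phlda3 did not pass (edgeR adjusted p = 0.794).

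In stretched cultures edgeR called 2 of the 10, where 29.3% of all genes were called. There was 1 gene higher and 1 lower in axons, where 0.843% and 28.4% of all genes were. Mdm2 was at 309 ± 76.5 CPM in stretched axons and 96.8 ± 16.5 CPM in stretched somata (SD, n = 6 each), with every axonal library above every soma library (log2 fold change 1.17, SE 0.31, edgeR adjusted p = 0.0109). Without the filter on low counts it did not pass (edgeR adjusted p = 0.098). Bbc3 was at 7.997 ± 1.61 CPM in stretched somata (SD, n = 6) and had 0 counts in all 6 stretched axon libraries, at least 57.4-fold lower in axons (edgeR adjusted p = 5.7e-05 with no filter). Mdm2 and Bbc3 were also the only 2 of the 10 genes without overlap, 1 higher against 1.35% and 1 lower against 34.6% of all genes.

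Cdkn1a was higher in 5 of 6 stretched axon libraries than in all stretched somata, at 499 ± 316 CPM against 77.1 ± 7.82 CPM (SD, n = 6 each). The log2 fold change of 2.25 (SE 1.124) did not pass with edgeR (adjusted p = 0.210). Without stretched axon replicate 1, the library with 1 count, it was 2.52 (SE 0.29) and passed (edgeR adjusted p = 1.9e-05), and DESeq2 called it with all libraries (adjusted p = 0.0321). The edgeR call rests on leaving out that library. Cdkn1a led to the choice of the set by its low level in these stretched somata. Its ratio and p-values here are therefore not independent of that choice. Gadd45a had counts in stretched axon replicate 8 alone, and without that library it was at 0 in stretched axons. Whether the ratio of axon to soma differed between the conditions was not tested.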

How the data were processed

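RNA was counted in 23 libraries of axons or somata from control and stretched hippocampal cultures. Per the labels' protocols, cDNA was amplified from poly(A) RNA with a low-input kit whose adapters carry unique molecular identifiers, and both ends of fragments were read. The submitters' processing notes name FastQC 0.11.9, MultiQC 1.12, fastp 0.20.1, STAR, HTSeq 0.13.5 and build mm10. The annotation, the use of strand and any removal of duplicates are not given in the sources used here, so counts of amplified reads may not be independent molecules. The authors deposited whole-number read counts per gene, and the totals of uncounted reads that follow them, 14.2% to 24.4% of the reads of a library, were left out of library sizes.

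Gene symbols were matched by ID for 55141 of 55487 gene IDs, and positions come from the GENCODE annotation of GRCm38. No 2 libraries were identical. CPM are counts per 1000000 of the library total, and CPM per kb divides them by the length of all exons of the gene. Each comparison was fitted on its own 2 groups with edgeR 4.0.16 in R 4.3.3 (filterByExpr, TMM scaling, quasi-likelihood F test with robust estimation), with Benjamini-Hochberg adjustment over all genes tested and a threshold of 0.05. Standard errors (SE) were obtained from the F statistic, as the absolute log2 fold change over the root of F. The fit was tested on simulated data. Relations between genes used log2(TMM-scaled CPM + 1), two-sided permutation tests with 100000 resamples and adjustment over 9 relations.

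The 10 genes, the pathway lists and the marker lists were chosen with earlier results of these data known. All 10 genes are named in every comparison, and from each pathway list up to 3 genes per direction with the smallest p among those called in somata. Alternatives were scaling by totals, no filter, DESeq2 1.42.0 on the same filtered genes, the replicate number as a block, each library left out, the Eif2s3y sets alone or as a covariate, and offsets for transcript length and GC content (mgcv 1.9.3). The replicate numbers in the sample titles did not meet the criterion for pairing libraries, so the main fits have no block. The criterion was set on the lowest correlation of same-numbered libraries, which was 0.0906 in somata. In somata, each number found in both groups lay in the same Eif2s3y set in both. Proteins were not used here.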

Additional observations from a re-analysis of the deposited data

Results flagged for a closer look

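In 7 of the 40 combinations of gene and group, 1 library stood apart by more than the 95% limit of Dixon's test. Chance flags about 1 in 20 such sets, and 5 of the 7 were in axons, where counts of 0 are common and set the range. Trp53 in control axons was highest in replicate 1, at 369.7 CPM, with the next library at 87.9 CPM. Bbc3 was highest in the same library, at 156.7 CPM, with the next at 1.37 CPM. Mdm2 in control axons was highest in replicate 5, at 281 CPM, with the next at 1.21 CPM. Gadd45a was counted in 1 library of each axonal group, at 0.209 CPM in control replicate 5 and at 18.41 CPM in stretched replicate 8. In somata, Bax in stretched replicate 4 was at 131 CPM with the next at 113.6 CPM, and Bak1 in control replicate 4 was at 17.52 CPM with the next at 13.5 CPM.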

How the results depend on the processing

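In axons and for Gadd45a, precision is limited by libraries with 0 counts, where 1 library can set a group mean. The number of the 10 genes called for stretch in axons was 0 in all 11 fits that left out 1 library and 1 with DESeq2, which gave no adjusted p for Mdm2. This number ranged from 3 to 6 for axon against soma in control and from 2 to 3 in stretched cultures. In stretched cultures with no filter it was 1. In somata, the other pathway genes called numbered 22 to 44 when 1 library was left out, of which 5 to 16 were higher and 16 to 28 lower. They numbered 0 in the Eif2s3y-low libraries, 17 with the length and GC offset and 18 with the offset and the replicate block. Of the 23 genes named from the lists, 23 passed with DESeq2 and with library totals only, 20 with no filter, 17 with the block, 18 in the Eif2s3y-high libraries and 12 with the offset. Cdkn1a in somata ranged from -0.89 to -0.75 (log2 fold change) when 1 library was left out and was -0.57 with the offset, with or without the block. Bax in somata turned to 0.19 with the offset and to 0.19 with offset and block, and Bok to 0.039 and 0.043. Within the Eif2s3y sets 2 relations with Cdkn1a passed in place of 0, by permutation p-values that may be too small. Leaving out 1 library turned the sign of genes that were not called: for stretch in axons Trp53 ranged from -0.70 to 1.51, Ccng1 from -0.29 to 0.51, Bax from -0.34 to 0.014 and Sesn2 from -0.11 to 1.43. For axon against soma in control cultures, Trp53 ranged from -0.73 to 0.91 and Bbc3 from -6.11 to 0.37, and in stretched cultures Gadd45a ranged from -7.96 to 1.56 and Sesn2 from -1.15 to 0.11. Sesn2 in stretched cultures was 0.28 with library totals only, and Bbc3 in control cultures was -0.070 with no filter. The cause was not tested.

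Same-numbered libraries had deviations that correlated by 0.19 on average in somata (lowest 0.0906, 5 pairs) and by 0.04 in axons (3 pairs). Between axon and soma they correlated by 0.05 in control (4 pairs) and by 0.004 in stretched cultures (6 pairs). Libraries of different numbers correlated by -0.03 in somata, -0.004 in axons, and -0.008 and -0.0009 between axon and soma. In the same order, 2 of 5, 2 of 3, 3 of 4 and 3 of 6 libraries correlated best with their own number. With the replicate number as a block, 21 other pathway genes passed in somata, 0 of the 10 genes passed for stretch in axons, and 2 of the 10 passed for axon against soma in each condition, without Cdkn1a (edgeR adjusted p = 0.101) and Ccng1 (0.296) in control and without Mdm2 (0.545) in stretched cultures. The block turned Ccng1 to -4.35 and Sesn2 to -13.52 for stretch in axons, Trp53 to -5.51, Bbc3 to -6.61 and Phlda3 to -0.24 for axon against soma in control cultures, and Trp53 to -0.83, Ccng1 to -0.24, Gadd45a to -6.72 and Phlda3 to -0.40 in stretched cultures.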

Other observations

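Single axonal libraries differed in which of the 10 genes they held. Stretched axon replicate 1 had the fewest genes of any library (4263), and 1 count of Cdkn1a with none of Trp53, Sesn2 or Phlda3. It also had the highest axonal levels of Ccng1, at 2064 CPM, and of Mdm2, at 419 CPM. Stretched axon replicate 5 held 2 counts of Ccng1 and 262 CPM of Cdkn1a, and control axon replicate 3 held 4 of the 10 genes, Cdkn1a, Ccng1, Bax and Phlda3. Control axon replicate 5 and stretched axon replicate 8, the libraries with the most genes in their group (10242 and 10065), each held 9 of the 10 and were the only ones with Gadd45a.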
